A study of Mus musculus with 4 samples.

Results

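Chromatin accessibility was described at the genes of 7 endoderm transcription factors, Foxa1, Foxa2, Sox7, Sox17, Gata4, Gata6 and Hnf4a, out of 21887 protein-coding mouse genes. A gene's locus was its body in the mm10 build with 50 kb added on each side, and every deposited peak that overlapped a locus was used. At day 0 these were 107 of 198860 peaks for wild type and 131 of 222257 for the knockout, and at day 5 they were 109 of 189571 and 140 of 227878. All 7 loci held peaks in all 4 libraries.

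The study compared mouse embryonic stem cells, which are pluripotent cells derived from blastocysts, of wild-type and Cdc14ab KO genotype, the knockout being named for the Cdc14 family of protein phosphatases. Each genotype was profiled at day 0, in medium with LIF, a cytokine that maintains pluripotency, and at day 5 of neural differentiation in N2B27 medium with EGF and FGF2. Accessible DNA was tagged in single nuclei by the ATAC side of a 10x Multiome assay, and the peaks of each library summarise all of its nuclei. There was 1 library for each of the 4 groups, so no difference has a replicate check and no p-value is given. All cultures had been grown on feeder cells, which were removed by plating on gelatin at low density, and dead cells were depleted before nuclei were made. All 4 labels carry clone number 3, so genotype and cell line cannot be told apart.

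FOXA1 and FOXA2 are forkhead pioneer factors, proteins that can bind their sites in closed chromatin, and they act early in definitive endoderm, liver, lung and the floor plate of the neural tube. GATA4 and GATA6 are zinc finger factors of primitive endoderm and heart, SOX7 and SOX17 are HMG-box factors of the SOXF group found in extraembryonic and definitive endoderm and in endothelium, and HNF4A is a nuclear receptor of visceral endoderm and liver. In blastocysts GATA6 marks the cells that become primitive endoderm, the sister lineage of the pluripotent epiblast from which embryonic stem cells come.

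Promoter sequences were at hand for 3 of the 7 genes, from RefSeq on GRCm38.p6, the assembly behind mm10. Each runs 5′ to 3′ from 250 bases before an annotated start to 50 bases from it onward. Sequences are shown for the single Foxa1 start and for the Foxa2 start that lay under a peak in every library. Both Hnf4a starts are shown as well, the upstream one under a peak in the knockout libraries and the downstream one in no library. The outer Foxa2 starts, at 148045464 and 148046969, lay under no peak in any library, and their sequences are not shown. Capitals mark matches, on either strand, to short motifs, and matches that overlap run together. A GATA motif was AGATAA, or the same with G in place of its last base, or either of these with T in place of its first base. A FOX motif was TGTTTAC, or the same with A in place of its second base. A SOX motif was ACAAAG, or otherwise ACAATG, or in the remaining form ACAATA. The HNF4 motif searched was CAAAGTC, and the TATA motif was TATAAA.
Foxa1, chr12:57546062-57546361, minus strand: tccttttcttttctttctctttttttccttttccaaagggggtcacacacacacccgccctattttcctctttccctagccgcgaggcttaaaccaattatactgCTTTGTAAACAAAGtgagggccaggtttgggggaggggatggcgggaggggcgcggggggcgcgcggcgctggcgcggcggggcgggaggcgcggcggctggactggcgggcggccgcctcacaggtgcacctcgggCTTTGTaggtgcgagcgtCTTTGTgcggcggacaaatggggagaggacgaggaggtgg
Foxa2, chr2:148045899-148046198, minus strand: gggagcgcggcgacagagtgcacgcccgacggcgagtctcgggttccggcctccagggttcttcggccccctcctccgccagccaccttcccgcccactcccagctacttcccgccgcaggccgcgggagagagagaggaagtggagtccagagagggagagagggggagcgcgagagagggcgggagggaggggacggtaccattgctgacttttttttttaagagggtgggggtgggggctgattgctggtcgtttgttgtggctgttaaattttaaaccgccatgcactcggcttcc
Hnf4a upstream start, chr2:163506607-163506906, plus strand: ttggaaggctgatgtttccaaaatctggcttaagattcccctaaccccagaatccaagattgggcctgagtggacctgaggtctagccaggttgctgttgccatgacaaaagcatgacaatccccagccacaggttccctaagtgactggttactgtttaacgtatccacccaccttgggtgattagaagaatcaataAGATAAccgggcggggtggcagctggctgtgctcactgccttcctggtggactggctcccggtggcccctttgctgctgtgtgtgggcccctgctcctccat
Hnf4a downstream start, chr2:163546905-163547204, plus strand: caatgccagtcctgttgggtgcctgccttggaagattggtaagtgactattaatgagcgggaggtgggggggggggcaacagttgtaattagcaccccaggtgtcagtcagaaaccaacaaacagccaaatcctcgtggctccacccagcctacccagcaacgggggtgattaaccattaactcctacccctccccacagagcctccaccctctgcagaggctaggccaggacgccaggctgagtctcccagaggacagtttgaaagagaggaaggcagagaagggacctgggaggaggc

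The Foxa1 sequence held 1 FOX match, which began 141 bases before the start and overlapped a SOX match on each side of it, and further SOX matches at 8 bases before and 10 bases after the start. The upstream Hnf4a sequence held 1 GATA match, AGATAA, beginning 52 bases before the start. No match was found in the Foxa2 sequence shown or in the downstream Hnf4a sequence, which says only that these letters are not in those windows. Among all 32851 promoter sequences of the same length, 29.8% held a GATA match, 6.54% a FOX match, 34.1% a SOX match, 4.44% an HNF4 match and 13.6% a TATA match. GC content was 62.3% with 26 CpG dinucleotides at Foxa1 and 64.0% with 23 at the Foxa2 start shown, against medians of 52.7% and 7 over all promoters. The Hnf4a sequences had 54.0% GC upstream and 57.3% downstream, with 4 CpG dinucleotides each.

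Peaks covered 300 of the 300 bases of the upstream Hnf4a sequence in the knockout on both days and 0 bases in wild type on both days. They covered 274, 300, 300 and 286 bases of the Foxa2 sequence in, first, day 0 wild type and knockout and, second, day 5 wild type and knockout, the order used below wherever 4 values follow each other. At Foxa1 they covered 7, 36, 89 and 124 bases, and the peaks lay mostly to either side of the start. The downstream Hnf4a sequence had no covered base in any library.

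The knockout libraries held longer peak lists than the wild-type ones, 168.8, 190.3, 162.5 and 197.3 Mb in all, and the deposited lists carry no counts, so sequencing depth is unknown. Each ratio below is therefore the log2 of covered base pairs plus 500 in one library over the other, minus the median of that ratio over the 20806 protein-coding genes with any covered base. That median was 0.11 for knockout over wild type at day 0, 0.31 at day 5, -0.22 for day 5 over day 0 in wild type and -0.03 in the knockout. The wild-type day 5 library listed 915, 888 and 792 bp of peak within 1 kb of the ends of the Y-linked genes Eif2s3y, Uty and Ddx3y, and the other libraries listed 0 bp at each. At Kdm5d, a further Y-linked gene, all 4 libraries listed 0 bp, and peaks on the Y chromosome numbered 16, 16, 20 and 14. Knockout against wild type at day 0 and day 5 against day 0 in the knockout do not use the wild-type day 5 library.

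Whether the wild-type libraries of day 0 and day 5 came from the same cells was not tested. The labels were compared with start peaks of known markers. Pou5f1, Nanog and Sox2, genes of the pluripotency network, and Pax6, Sox1 and Nes, genes of neural progenitors, all had covered bases within 1 kb of a start or end in all 4 libraries, so presence of a peak there did not separate day 0 from day 5. The Pou5f1 start had 1400, 1451, 707 and 1433 bp covered, lowest in day 5 wild type. The Pax6 start had 1240, 1292, 1266 and 556 bp covered, lowest in the day 5 knockout. Accessibility of a whole library cannot tell fewer open cells from less open chromatin per cell.

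Endoderm factor loci were covered to about the same extent as other genes, with 1 departure. The median share of a locus covered was 8.73, 12.4, 10.8 and 13.0% over the 7 genes and 12.0, 13.3, 10.1 and 12.8% over all genes, so the endoderm factors were below the typical gene in day 0 wild type and near it in the other libraries. In wild type at day 0 the order from most to least covered per length was Foxa1, Hnf4a, Gata4, Sox17, Foxa2, Sox7 and Gata6, from 12.4% down to 7.63%. In the day 0 knockout it was Hnf4a at 17.7%, Sox7 at 14.9%, Gata4, Foxa1, Gata6, Foxa2 and Sox17, the last at 5.93%. At day 5 Foxa2 led in wild type at 12.2%, Gata4 led in the knockout at 15.3%, and Gata6 in wild type and Foxa2 in the knockout came last at 7.15 and 11.4%. With 1 library per group, which neighbours in these orders differ beyond sample spread was not tested.

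**Figure D1:**
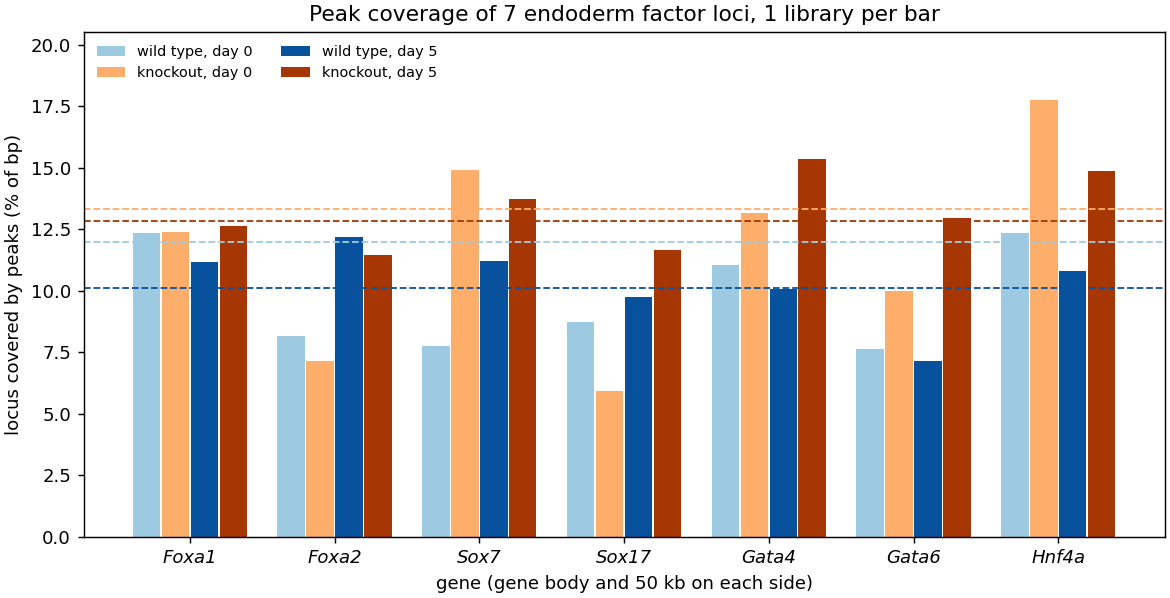
Percent of each locus (gene body and 50 kb on each side) covered by peaks in each of the 4 libraries, 1 bar per library. Dashed lines are at the median of all protein-coding genes in each library. Hnf4a, Sox7, Gata4 and Gata6, and by a small margin Foxa1, are higher in the knockout than in wild type on both days, Foxa2 is lower, and Sox17 in the day 0 knockout is the lowest value at 5.93%.

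Peaks of the 4 libraries that overlapped by at least 1 bp were joined into 186 regions at the 7 loci, 20 for Foxa1, 18 for Foxa2, 24 for Sox7, 20 for Sox17, 38 for Gata4, 25 for Gata6 and 41 for Hnf4a. Peaks of all 4 libraries met in 68 regions, 36.6% (exact binomial interval at 95% confidence 29.6 to 43.9%, counting error only), against 36.0% of the 266329 regions at all protein-coding loci. A single library held 58 regions, 31.2% (24.6 to 38.4%), against 30.1% at all loci. Pooled over the 7 genes, regions were thus shared between libraries to the extent typical of other genes, but the genes differed. Regions of all 4 libraries were 11 of 20 at Foxa1, 8 of 18 at Foxa2, 17 of 38 at Gata4 and 17 of 41 at Hnf4a. They were 5 of 24 at Sox7, 4 of 20 at Sox17 and 6 of 25 at Gata6. Of the 58, 6 were in day 0 wild type (3.23% of the 186, against 4.95% at all loci), 16 in the day 0 knockout (8.60 against 7.92%), 13 in day 5 wild type (6.99 against 7.81%) and 23 in the day 5 knockout (12.4 against 9.39%). Regions of both knockout libraries and neither wild-type library numbered 10, 5.38% against 3.66% at all loci, of which Hnf4a held 4 and Gata4 held 3. The reverse, both wild-type libraries only, held for 1 region, at Sox7, 0.54% against 0.86% at all loci. Regions at 1 locus share their surroundings and are not independent.

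**Figure D2:**
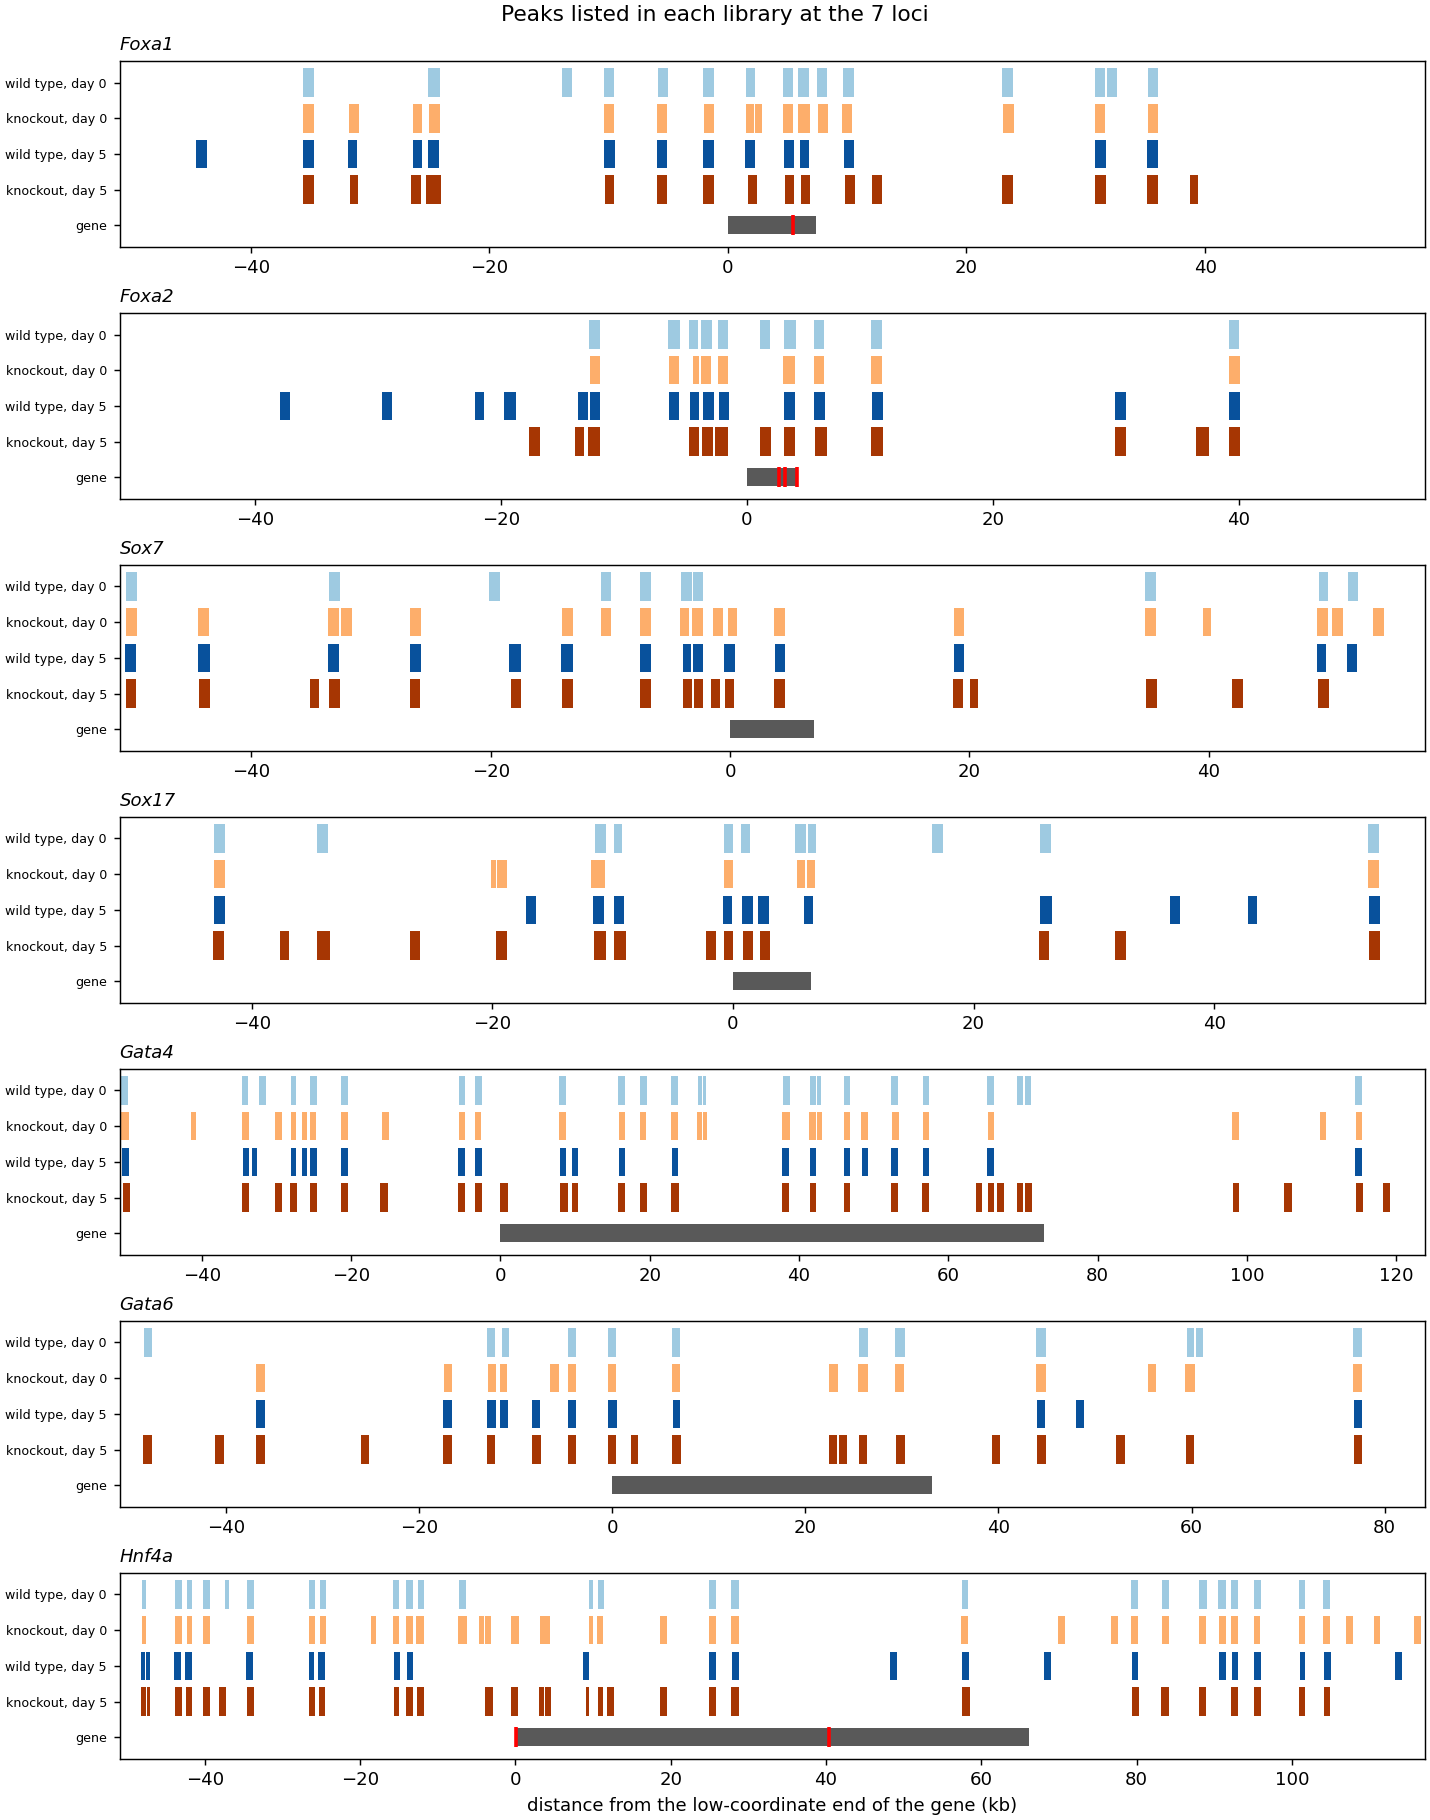
Peaks at each locus in the 4 libraries, drawn by distance from the low-coordinate end of the gene in kb, with the gene body as a dark bar and red ticks at annotated starts of Foxa1, Foxa2 and Hnf4a. Sox7 has few peaks in day 0 wild type (10 against 19 in the knockout), and the upstream Hnf4a start carries a peak in the knockout rows only.

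**Figure D3:**
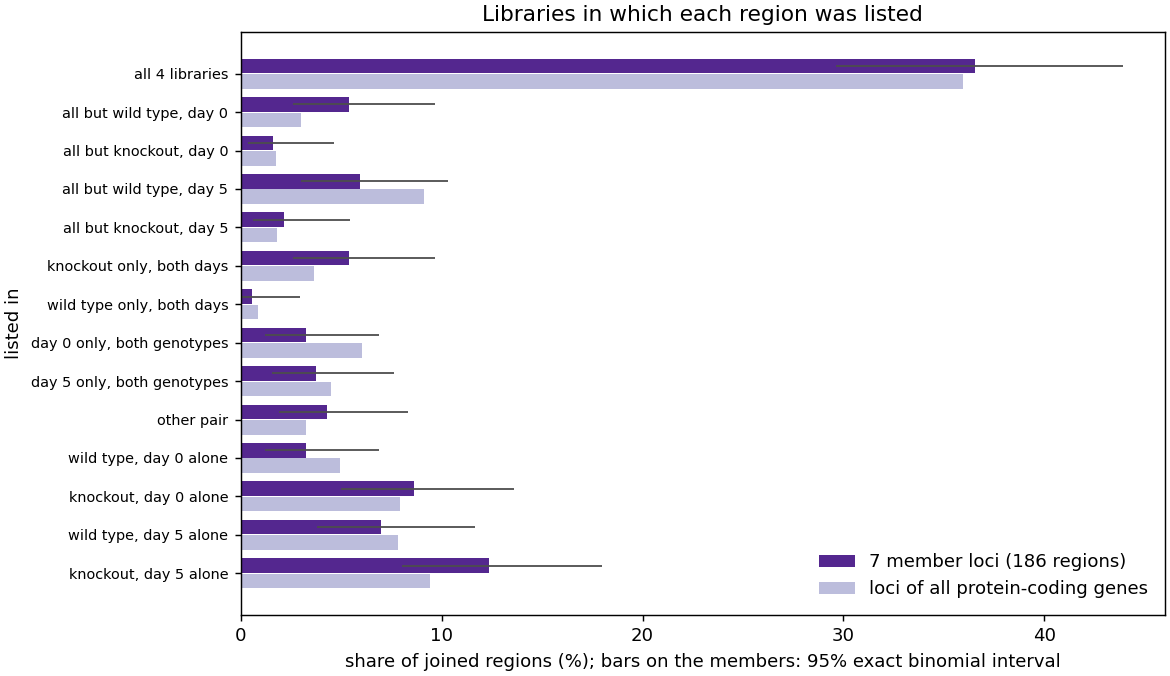
Percent of joined regions found in each combination of libraries, for the 186 regions at the 7 loci and for the 266329 regions at all protein-coding loci, with exact binomial 95% intervals on the former that cover counting error only. The 2 sets are close for regions of all 4 libraries (36.6 and 36.0%), and regions of all libraries but day 0 wild type are 5.38% against 3.01%.

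Among the forkhead genes, Foxa1 was the least variable of the 7. Its locus (chr12:57540628-57548029 with flanks) had 13275 and 13318 bp covered at day 0 and 11974 and 13566 bp at day 5, in 15, 16, 14 and 16 peaks. The lowest value was that of day 5 wild type. The centred log2 ratio of knockout over wild type was -0.10 at day 0 and -0.13 at day 5, and without the subtraction of the median it was 0.00 and 0.17. Day 5 over day 0 was 0.08 in wild type and 0.05 in the knockout (-0.14 and 0.03 without centring). Of its 20 regions, 11 were in all 4 libraries. A pair of peaks flanked the start in every library, with 1453, 1408, 1234 and 1191 bp covered within 1 kb, and the start base itself lay under a peak in both day 5 libraries and in neither day 0 library. The genotypes shared 69.4% of their joint covered bases at day 0 and 66.8% at day 5, against medians of 65.2 and 53.8% over all genes. The gene Ttc6 has its start inside the Foxa1 locus, and its start peak (897, 980, 0 and 905 bp) was missing in day 5 wild type.

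Foxa2 carried more accessible sequence at day 5 than at day 0 in both genotypes. Its locus (chr2:148042877-148046969 with flanks) had 8494 and 7424 bp covered at day 0 and 12674 and 11916 bp at day 5, in 10, 9, 15 and 13 peaks. Both day 5 values lay above both day 0 values. The centred log2 ratio of day 5 over day 0 was 0.77 in wild type and 0.68 in the knockout, above those of 93.4 and 93.8% of genes. Without centring it was 0.55 and 0.65. The knockout was below wild type by the centred ratio on both days, -0.29 and -0.39, above only 9.82 and 8.91% of genes (-0.18 and -0.09 without centring). With flanks of 100 kb the day 0 value turned to 0.15. Day 5 over day 0 fell as low as 0.01 in wild type and 0.02 in the knockout over 8 alternatives in processing.

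At the Foxa2 gene itself, covered sequence did not follow the days in the same way in both genotypes. The peak over the annotated start at position 148045948 held 921, 949, 890 and 858 bp within 1 kb, about 1 peak width in every library, and the outer annotated starts at 148045464 and 148046969 lay under no peak in any library. Within 1 kb of the start at 148045464, peaks covered 856, 643, 578 and 936 bp. A region at chr2:148043911-148044847, 617 bp from that start, was listed in day 0 wild type (808 bp) and the day 5 knockout (937 bp) and in neither other library. Over the gene body the covered sequence was 1729, 949, 890 and 1795 bp, so it was lower at day 5 in wild type and higher in the knockout. Farther out, both day 5 libraries, and neither day 0 library, had a region at chr2:148028939-148029973, on the low-coordinate side (offset of -13938 bp from the gene), and another at chr2:148072779-148073695, on the high-coordinate side (offset of 25810 bp). Wild type at day 5 alone had 4 more regions, all on the low-coordinate side between 148004952 and 148024073, and the day 5 knockout alone had 2. These are counts among 18 Foxa2 regions. At all loci, regions of both day 5 libraries only were 4.48%, of day 5 wild type alone 7.81% and of the day 5 knockout alone 9.39%. With flanks of 10 kb in place of 50 kb the ratio of day 5 over day 0 was 0.01 in wild type and 0.20 in the knockout.

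Among the SOXF genes, Sox7 had more covered sequence in the knockout than in wild type at day 0, with the centred ratio farthest from 0 of the 7 genes at flanks of 50 kb. With flanks of 10 kb it was 0.77, against 1.00 for Hnf4a and -0.82 for Sox17, and when lists were trimmed to equal numbers of their widest peaks it was 0.70, against -1.17 for Sox17. The locus (chr14:63943706-63950732 with flanks) had, at day 0, 8308 bp covered for wild type against 15950 bp for the knockout, in 10 and 19 peaks. At day 5 the values were 11985 and 14674 bp, in 14 and 18 peaks. Wild type was the lower genotype on both days, and its day 0 library was the lowest of the 4. The centred log2 ratio of knockout over wild type was 0.79 at day 0, above 97.5% of genes, and -0.02 at day 5, where the ratio without centring was 0.28. Day 5 over day 0 was 0.73 in wild type and -0.09 in the knockout. The day 0 comparison and the wild-type time course share the wild-type day 0 library, so the values 0.79 and 0.73 are not independent of each other.

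At the low-coordinate end of Sox7 (position 63943706) peaks covered 0, 1152, 883 and 961 bp within 1 kb, so wild type at day 0 was the library without a peak there. No library had a peak at the other end. The region over the low end, chr14:63943221-63944315, was 1 of 6 Sox7 regions found in all libraries but day 0 wild type, of 24 at the gene. Such regions were 3.01% of those at all loci. Next to it, chr14:63942115-63943098 was listed in both knockout libraries and in neither wild-type library. Of the 18 Sox7 regions of the day 0 knockout, 11 were absent from wild type, 61.1%, against 23.2% of such regions at all loci. Bases shared by both genotypes at day 0 were 33.3% of those covered in either, a share higher than in only 3.12% of genes.

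Sox17 went the other way at day 0. Its locus (chr1:4490928-4497426 with flanks) had 9300 and 6318 bp covered at day 0 and 10392 and 12389 bp at day 5, in 11, 8, 12 and 14 peaks. The knockout was the lowest library at day 0 and the highest at day 5. The centred log2 ratio of knockout over wild type was -0.63 at day 0, above only 2.68% of genes, and -0.06 at day 5 (0.24 without centring). Day 5 over day 0 was 0.37 in wild type and 0.95 in the knockout, the latter above 96.5% of genes. The day 0 comparison and the knockout time course share the day 0 knockout library, so -0.63 and 0.95 are not independent. In the knockout 9 of the 14 regions of day 5 were absent at day 0, 64.3%, against 25.2% at all loci, and 29.4% of the covered bases were shared between the days, against a median of 56.6%.

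Peaks lay at both ends of Sox17. At the low-coordinate end (4490928) they covered 1070, 710, 941 and 908 bp within 1 kb, and at the high-coordinate end (4497426) 1264, 1207, 770 and 0 bp. The region at the high end, chr1:4496046-4497825, was present in all libraries but the day 5 knockout, the library in which the locus as a whole was most covered. The 3 regions found in all libraries but the day 0 knockout were all Sox17 regions, among the 186. Such regions made up 1.61% of the 186, near the 1.76% at all loci. One region in the gene body, chr1:4493026-4493995, was listed in both day 5 libraries and neither day 0 library.

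Both GATA genes had more covered sequence in the knockout than in wild type on both days. Gata4 (chr14:63198914-63271712 with flanks) had 19081 and 22739 bp covered at day 0 and 17371 and 26517 bp at day 5, in 24, 28, 21 and 29 peaks. Both knockout values lay above both wild-type values. Knockout over wild type gave a centred log2 ratio of 0.14 at day 0 and 0.29 at day 5, above 71.7 and 80.7% of genes, and 0.25 and 0.60 without centring. With flanks of 10 kb the day 0 value turned to -0.11. Over time, day 5 over day 0 was 0.09 in wild type, where the ratio without centring was -0.13, and 0.25 in the knockout.

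The low-coordinate end of Gata4 (63198914) was covered in the day 5 knockout only, by a region of 1012 bp at chr14:63198895-63199906, and the high-coordinate end had no peak in any library. With a window of 2 kb a peak was also counted in day 0 wild type, near the high-coordinate end. Of the 3 Gata4 regions listed in both knockout libraries alone, the widest, chr14:63182810-63183953, lay on the low-coordinate side (offset of -16104 bp) and near the low-coordinate end of Neil2, a DNA glycosylase gene whose high-coordinate end had 911, 900, 914 and 887 bp covered. The others were chr14:63168748-63169695 and chr14:63296950-63297918. The day 5 knockout alone had 5 of the 38 Gata4 regions, that at the low-coordinate end among them. Regions of that library alone were 9.39% of those at all loci.

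Gata6 showed the larger ratio of the pair. Its locus on chromosome 18 (11052510 to 11085636 with flanks) had 10152 and 13305 bp covered at day 0 and 9512 and 17254 bp at day 5, in 12, 15, 11 and 20 peaks. The day 5 knockout stood above the other 3 libraries. Knockout over wild type gave a centred log2 ratio of 0.27 at day 0 and 0.52 at day 5, above 84.0 and 90.7% of genes (0.37 and 0.83 without centring). Over time, day 5 over day 0 was 0.13 in wild type (-0.09 without centring) and 0.39 in the knockout. The low-coordinate end (11052510) carried a peak in every library, 801, 860, 844 and 869 bp within 1 kb, so the difference lay outside it. Of the 20 regions of the day 5 knockout, 11 were absent from wild type, 55.0%, against 34.7% at all loci. Among all 25 Gata6 regions, 6 were in the day 5 knockout alone, a kind that made up 9.39% at all loci. A region in the gene body, at 11074965 to 11075850, was listed in both knockout libraries and in neither wild-type library.

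Hnf4a, the nuclear receptor gene, had the most covered sequence per length of the 7 in the day 0 knockout. Its locus (chr2:163506811-163572907 with flanks) had 20501 and 29467 bp covered at day 0 and 17929 and 24674 bp at day 5, in 25, 36, 22 and 30 peaks. Both knockout values lay above both wild-type values. Knockout over wild type gave a centred log2 ratio of 0.41 at day 0, above 91.1% of genes, and 0.14 at day 5, and without centring 0.51 and 0.45. With only the widest peaks of each library, in equal numbers, the day 5 value turned to -0.14. Over time, day 5 over day 0 was 0.03 in wild type (-0.19 without centring) and -0.22 in the knockout (-0.25 without centring). At day 0, 11 of the 35 Hnf4a regions of the knockout were absent from wild type and 1 of the 25 wild-type regions was absent from the knockout, 31.4 and 4.00%, against 23.2 and 15.1% at all loci.

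Of the 4 Hnf4a regions listed in both knockout libraries and in neither wild-type library, 3 lay over or within 3 kb of the upstream start. One was over the start itself (position 163506857), a peak at chr2:163506284-163507238 at day 0 and chr2:163506291-163507191 at day 5. It held the whole upstream sequence printed above, with its GATA match. The others were chr2:163502832-163503877, chr2:163509805-163511375, the widest at 1571 bp, and chr2:163525389-163526324. With flanks of 10 kb the centred ratio of knockout over wild type was 1.00 at day 0 and 0.48 at day 5. The downstream start (163547155) had no peak within 1 kb in any library. The neighbours Fitm2, R3hdml and Ttpal had start or end peaks of similar width in every library (885, 882, 878 and 880 bp at Fitm2).

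Counted over start windows (within 1 kb of an annotated start, or of either gene end for Sox7, Sox17, Gata4 and Gata6, for which no annotated start was at hand), a peak was present at 4, 6, 5 and 7 of the 7 genes. Over all genes with any covered base the share was 77.7, 78.6, 77.4 and 79.2%. Sox7, Gata4 and Hnf4a lacked one in day 0 wild type, Gata4 in the day 0 knockout, and Gata4 and Hnf4a in day 5 wild type. A peak in a start window in the knockout alone was listed at 2 genes at day 0 (Sox7 and Hnf4a), against 2.11% of all genes. At day 5 it was listed at 2 genes (Gata4 and Hnf4a), against 3.21%. The reverse held for 0 genes on both days, against 1.23 and 1.5% of all genes. Day 5 and not day 0 held for Sox7 in wild type, against 2.38%, and for Gata4 in the knockout, against 2.42%. The Gata4 peak of the day 5 knockout lay at the low-coordinate end, and the high-coordinate end had none in any library. Day 0 and not day 5 held for 0 genes in both genotypes, against 2.59% in wild type and 1.8% in the knockout. These counts accept a peak at either end of a gene without an annotated start. At the high-coordinate end of Sox17, peaks covered 1207 bp in the day 0 knockout, 770 bp in day 5 wild type and 0 bp in the day 5 knockout. Sox17 was still counted in the day 5 knockout through its low-coordinate end. Which end of Sox17 or Gata4 is the start was not at hand.

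A centred log2 ratio of at least 0.5 or at most -0.5 was used as the mark of a large difference in covered sequence. At day 0 the knockout passed it upward at Sox7 and downward at Sox17, where 6.15 and 3.9% of all genes passed it. With flanks of 100 kb neither passed it (0.39 and -0.39). The 7 genes had a median of 0.14, with 4 above 0, so they had no common direction at day 0. At day 5 Gata6 was the only gene past the mark, upward, against 9.86% of all genes, with 0 genes downward against 5.72%. Gata6 lay just past the mark at 0.52 and was within it in 3 of 8 alternatives, at 0.26 with flanks of 100 kb, 0.47 with a pseudocount of 2000 bp and 0.48 without the starts of other genes. The median was -0.02, with 3 of 7 above 0.

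From day 0 to day 5, all 7 genes were above the median gene in wild type, with a median of 0.13, but 4 of 7 with flanks of 10 kb and 6 of 7 with flanks of 100 kb. Foxa2 and Sox7 passed the mark upward, against 12.1% of all genes, and 0 genes passed it downward, against 8.82%. In 4 of the 7 (Foxa1, Gata4, Gata6 and Hnf4a) the ratio was below 0 without centring, so that their covered sequence was less at day 5, by less than at the median gene. In the knockout 5 of 7 were above the median gene, with a median of 0.25. Foxa2 and Sox17 passed the mark upward, against 9.54%, and 0 genes passed it downward, against 3.76%. Only Foxa2 passed it in both genotypes, and these time courses share no library. Foxa2 passed it in 7 of 8 alternatives in wild type, with a lowest value of 0.01. In the knockout it did so in 6 of 8, with a lowest value of 0.02.

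**Figure D4:**
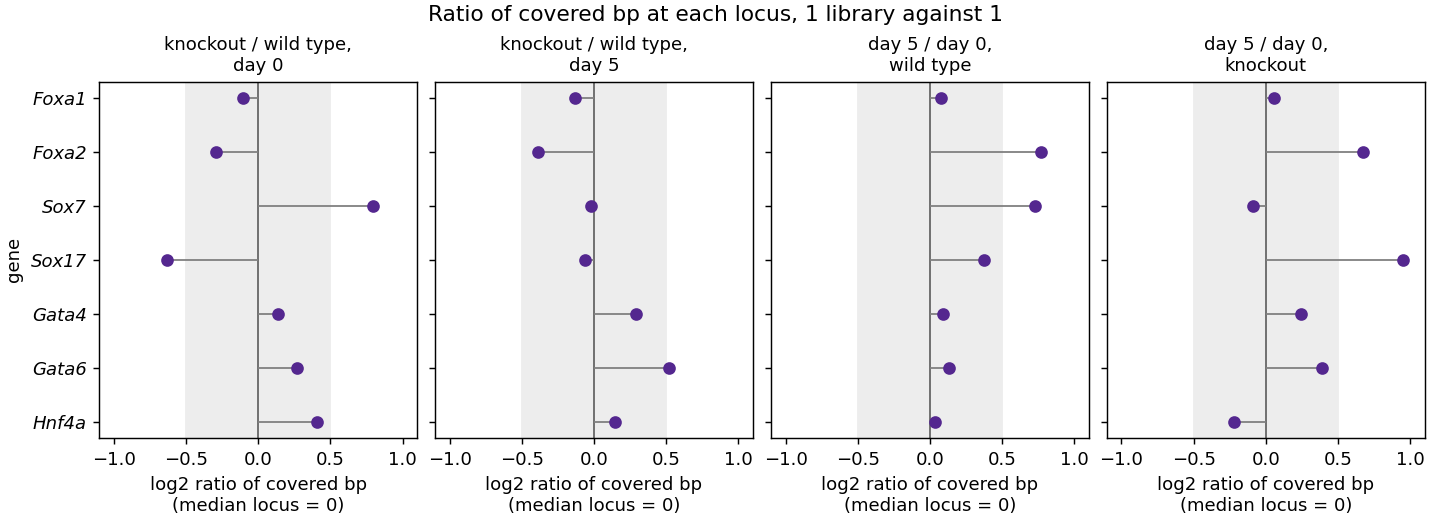
Centred log2 ratio of covered base pairs at each of the 7 loci in the 4 comparisons, with 0 at the median of all protein-coding genes and a grey band over values between -0.5 and 0.5. Points outside the band are Sox7 (0.79) and Sox17 (-0.63) at day 0, Gata6 (0.52) at day 5, Foxa2 (0.77) and Sox7 (0.73) over time in wild type, and Sox17 (0.95) and Foxa2 (0.68) over time in the knockout.

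The change over time in the knockout minus that in wild type was -0.02 for Foxa1, -0.10 for Foxa2, -0.81 for Sox7, 0.57 for Sox17, 0.16 for Gata4, 0.26 for Gata6 and -0.26 for Hnf4a. Apart from the medians subtracted, this difference equals the ratio of knockout over wild type at day 5 minus that at day 0. It is therefore not a separate result from those ratios. By it, Sox7 and Sox17 were the genes whose time courses were farthest apart between genotypes, in opposite directions. Sox7 was above only 4.56% of all genes in this difference and Sox17 above 90.4%. The changes in covered sequence over the whole Foxa1 and Foxa2 loci were nearly equal in both genotypes. Within the Foxa2 gene body, however, it went from 1729 to 890 bp in wild type and from 949 to 1795 bp in the knockout.

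Most other genes of the endoderm program lay within the mark between genotypes. Among 7 paralogs (Foxa3, Sox18, Gata1, Gata2, Gata3, Gata5 and Hnf4g) the median centred ratio of knockout over wild type was -0.08 at day 0 and 0.04 at day 5, and 0 passed the mark. Among 13 signals and receptors, such as Nodal, Pdgfra and Fgfr2, they were -0.01 and -0.08, with 0 past it. Of 28 endoderm targets and markers, 2 passed it upward at day 0, against 6.15% of all genes. They were Apob (0.59), which encodes the main apolipoprotein of low-density lipoprotein, and Dab2 (0.53), an endocytic adaptor of visceral and parietal endoderm. At day 5, 0 of the 28 passed it, against 9.86% of all genes upward and 5.72% downward.

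Over time in wild type, 8 of the 28 targets and markers passed the mark upward and 0 downward, against 12.1 and 8.82% of all genes. The list's median was 0.09. Loci with flanks of 50 kb can overlap between neighbouring genes, so genes of a list need not be independent. Among them were Col4a1 (1.13) and Col4a2 (0.77), the basement membrane collagens that parietal endoderm secretes, and Afp (0.99), the fetal albumin-like protein of visceral endoderm. In the knockout the median was 0.02, and 0 of the 28 passed the mark, against 9.54% of all genes upward and 3.76% downward. These shares, and those between genotypes, are also the background for the lists below. Of the signals, Cer1 (0.67), a secreted Nodal and BMP antagonist, and Bmp2 (0.59) passed it in wild type, and 0 of 13 did in the knockout. Hnf4g (-0.90) and Gata1 (-0.53) were the paralogs past it, downward in wild type. The start windows of Afp, Alb, Apoa4 and Serpina1a held no peak in any library.

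Several of these genes are shared with other cell types that the cultures could hold. Of 17 fibroblast markers, a list for feeder cells, 14 were above the median gene for knockout over wild type at day 0 (median 0.22, 3 past the mark upward) and 7 at day 5 (median -0.12, 1 upward and 6 downward). Over time in wild type 14 of 17 were above it (median 0.41, 8 upward and 1 downward). Those farthest from 0 were Lum (1.69), Postn (1.57) and Dcn (1.55), and the gene past it downward was Tagln (-1.08), named after its value was seen. In the knockout 8 of 17 were above it (median -0.01, 2 upward and 2 downward). Their loci summed to 209, 258, 219 and 250 kb of covered sequence. Start windows without a peak were those of Col3a1, Prrx1 and Lum in day 0 wild type, of Prrx1 and Lum in the day 0 knockout, and of Prrx1 in the day 5 knockout. The fibroblast list was thus low in day 0 wild type, as was Sox7, and the part of such cells in the Sox7 values was not tested.

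SOX7, SOX17, GATA4 and FOXA2 also act outside endoderm, and the markers of those tissues were counted in the same way. The 13 endothelial markers had medians of -0.03 and -0.17 for knockout over wild type at day 0 and day 5, and 0.17 and -0.06 over time in wild type and knockout. Past the mark were Emcn (0.58) and Erg (0.56) upward at day 0, Emcn (-1.61) downward at day 5, and Emcn (1.95) and Fli1 (0.63) upward over time in wild type. Emcn and Erg were thus higher in the knockout at day 0, as was Sox7, but only 4 of the 13 markers were above the median gene there. The part of endothelial cells in the Sox7 values was not tested. The 13 loci summed to 237, 265, 228 and 260 kb, and the ends of Emcn lacked a peak in all 4 libraries. The 12 cardiac markers had medians of 0.05, 0.00, 0.15 and 0.10 in the same order, with 1 gene past the mark, Myocd upward over time in wild type (0.78), and 215, 230, 190 and 233 kb in sum. The 11 floor plate markers had medians of -0.10 and -0.27 between genotypes, with 3 past the mark downward at day 5, Ferd3l (-0.999), Slit2 (-0.76) and Nkx2-2 (-0.52). Over time the medians were 0.50 and 0.19, with 5 of 11 past the mark upward and 1 downward in wild type (Spon1, -0.63, named after its value was seen) and 3 upward in the knockout. Among those upward were Shh (0.69) and Corin (0.67) in the knockout and Lmx1a (0.82) and Nkx2-2 (0.80) in wild type. Floor plate loci summed to 192, 201, 210 and 218 kb. Their median was above 0 over time in both genotypes, as Foxa2 was. The medians of the cardiac markers and of the neural progenitor markers (0.27 and 0.22) were above 0 as well. The part of floor plate cells in the Foxa2 values was not tested.

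The 12 pluripotency markers had medians of 0.00 and 0.01 between genotypes at day 0 and day 5, and -0.16 and -0.03 over time in wild type and knockout. The 14 neural progenitor markers had medians of -0.25 and -0.35 between genotypes, with 2 of 14 above the median gene on both days, and 0.27 and 0.22 over time. On both days 12 of the 14 neural loci were thus at or below the median gene in the knockout relative to wild type, while 4 and then 3 of the 7 endoderm factors were above it.

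Of 135 genes in these lists, those whose profile over the 4 libraries was nearest to the median profile of the endoderm factors were Twist2, Myl7 and Acta2, at distances of 0.08, 0.08 and 0.10 on the log2 scale (Euclidean, after subtracting the library medians and the mean of the gene). The median profile was lowest in day 0 wild type and highest in the day 5 knockout. Of the 7 genes, only Gata4 and Gata6 had this order. Foxa1, Foxa2 and Sox17 were lowest in the day 0 knockout and highest in day 5 wild type. Sox7 and Hnf4a were lowest in day 0 wild type and highest in the day 0 knockout. Among the 7 genes themselves, Gata4 was nearest to the median profile (0.17) and Sox17 farthest from it (0.71).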

How the data were processed

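Each of the 4 libraries came as 1 list of peak positions, with no count, height or score. Per the file headers, the authors called the peaks library by library, using version 2.0.0 of cellranger-arc with its mm10 reference. Tools given in the submitters' processing notes are Scanpy 1.7.2 and Cell Ranger ARC 2.0.0, with mm10 as the build. Whether doublets were removed is not given in the sources used here, barcodes were not used here, and depth is unknown. Ends of genes and annotated starts were taken from RefSeq tables of GRCm38.p6, and positions are 1-based.

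Covered base pairs, peaks and start windows were computed for each locus with Python 3.11.15, numpy 2.4.6, pandas 2.3.3 and scipy 1.17.1 and drawn with matplotlib 3.10.9. The code was tested on simulated peak lists. The pseudocount was 500 bp, the flank 50 kb, the start window 1 kb and the mark a log2 ratio of 0.5. Alternatives were other flanks (10 and 100 kb), pseudocounts (100 and 2000 bp), peak numbers, the widest peaks in equal numbers, another reference set, loci without the starts of other genes, other marks, start windows and overlaps. The members and gene lists were chosen with earlier results of these data known. All 7 members were described, with at most 3 genes per other list (past the mark, at least 2000 bp covered on average, farthest from 0), the 3 nearest profiles, genes inside a member locus, 6 marker genes as a check of the labels, and regions over starts or widest among those of 1 genotype, day or library. Other regions were named after their values were seen. The summary of 1 list, of further endoderm regulators, is not reported here.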

Additional observations from a re-analysis of the deposited data

Results flagged for a closer look

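Sox7 and Hnf4a had changes from day 0 to day 5 of opposite sign in the 2 genotypes. For Sox7, the SOXF factor, the centred log2 change was 0.73 in wild type and -0.09 in the knockout, a knockout minus wild-type difference of -0.81. For Hnf4a, the nuclear receptor, it was 0.03 and -0.22, a difference of -0.26, and without centring both changes were below 0 (-0.19 and -0.25). With flanks of 100 kb the signs were no longer opposite, at 0.04 for Sox7 in the knockout and -0.04 for Hnf4a in wild type. With 1 library per group neither difference was tested.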

How the results depend on the processing

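With 1 list of positions per group, nothing separates a genotype or a day from a library, and list length stands in for depth. Flank width moved many of the values. Sox17 for knockout over wild type at day 0 moved most with the widest peaks in equal numbers, from -0.63 to -1.17. With flanks of 10 kb the median over the 7 genes was -0.0195 for knockout over wild type at day 0 with 2 genes past the mark upward, and 0.0095 over time in wild type with 4 genes above the median gene and 1 past the mark. Over time in the knockout 1 gene was then past it, and 44.2% of 77 regions were in all libraries and 18.2% in 1. With flanks of 100 kb the medians were 0.29 at day 0, 0.45 over time in wild type and 0.0852 over time in the knockout. The counts past the mark were then 0 upward and 0 downward at day 0, 0 upward at day 5, and 1 upward in each time course. Counting peaks gave a median of 0.0841 over time in the knockout. The widest peaks in equal numbers gave 0.38 in that comparison and 2 genes past the mark upward at day 5. A pseudocount of 2000 bp, and leaving out the starts of other genes, each left 0 genes past it at day 5, where Gata6 lay at 0.52. A mark of 0.3 gave 2 genes upward at day 0 and 1 downward at day 5. With a mark of 1 the count was 0 in every comparison, since the value farthest from 0 was 0.95, at Sox17 over time in the knockout. For the other moved values the cause was not tested. By gene, over 8 alternatives, knockout over wild type at day 0 ranged from 0.39 to 0.82 at Sox7 and from -1.17 to -0.39 at Sox17, and at day 5 from 0.26 to 0.95 at Gata6. Day 5 over day 0 ranged from 0.01 to 0.80 at Foxa2 in wild type, from 0.02 to 0.71 in the knockout, and from 0.72 to 1.45 at Sox17 in the knockout. Numbers of genes with a start peak were within 1 of those given under every start window and peak choice tried.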
